A study of Homo sapiens with 16 samples.

Results

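The genes described here are 44 protein-coding genes that interferons switch on, followed through RNA sequencing libraries of human lung cancer cell lines. They were taken as a fixed list of symbols, which was chosen with earlier results of these data known. Of the 44 genes, 41 reached 1 FPKM (a read count scaled for gene length and library size) in at least 2 of the 14 libraries, out of 11936 of 19951 protein-coding genes that did so. MX2, TRIM22 and EPSTI1 did not and stayed below 1 FPKM in every library. NCI-H1975, a lung adenocarcinoma line with mutated EGFR, had been given the chloroform fraction of Flos Magnoliae (Magnolia flower buds), given magnolin (a lignan found in such buds) or left as control, with 4 libraries each. HCC827, a lung adenocarcinoma line driven by an EGFR deletion, was sequenced as parental cells in 2 libraries. All these samples carry the genotype label WT, and the labels give no dose, exposure time or vehicle for either treatment. The series set out to follow gene changes that come with resistance to EGFR kinase inhibitors and to look for compounds that counter them.

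Interferons are secreted proteins by which a cell warns itself and its neighbours of a virus. Type I interferon binds the receptor made of IFNAR1 and IFNAR2, the kinases JAK1 and TYK2 are activated there, and a complex that includes STAT2 and IRF9 binds the interferon-stimulated response element of its target genes. Interferon gamma acts through IFNGR1 and IFNGR2 and on genes with gamma-activated sites. Many tumour lines keep a basal level of these target genes without added interferon.

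Replicates 1 and 2 of every NCI-H1975 group came in one deposited table and replicates 3 and 4 in another. How the tables were scaled is not given, and they were treated as scaled apart from each other. Each test stayed inside 1 table unless a joint fit or all 4 replicates are named. Rebuilt depth was 15.9 to 21.3 M reads per library. No label states that the replicates came from different cultures; the p-values thus reflect spread among libraries that could be purely technical. The 3 replicate 1 libraries stood apart from the other NCI-H1975 libraries: EPCAM, an epithelial adhesion protein, had 178 FPKM in fraction replicate 1, 172 in magnolin replicate 1 and 193 in control replicate 1, against 7.65 to 14.4 FPKM in the other 9 NCI-H1975 libraries. EPCAM had the largest such gap of the 8 epithelial markers, and not all of them rose. For KRT8, replicate 1 minus replicate 2 on the log2(FPKM + 1) scale was 0.19 in fraction, -0.03 in magnolin and -0.52 in control. Summed FPKM of 8 epithelial markers was 1225 to 1443 in the replicate 1 libraries, 406 to 637 in the other NCI-H1975 libraries and 1957 to 2137 in HCC827. Epithelial markers, which the labels call for, were thus present in both lines, whereas 6 markers of the lung alveolar lineage summed to 2.49 to 9.61 FPKM in NCI-H1975 and 108 to 118 FPKM in HCC827. The 10 immune markers summed to at most 1.05 FPKM in any library, with CD3E, MS4A1 and CLEC4C at 0 throughout.

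The response element has the core TTTC, any 2 bases and TTTC again, and the gamma-activated site is TTCNNNGAA, where N is any base. RefSeq promoters (GRCh38.p14, 250 bases before the gene's start to 50 after it) were matched for 37 of the 44 genes. The core was found on either strand in 23 of these 37 promoters (62.2%), against 996 of 27305 promoters of all genes (3.65%), and the gamma-activated site in 10 of 37 (27.0%) against 7.88% of all promoters. In the comparison of fraction with control in replicates 3 and 4, the core was in 11 of 16 matched promoters of genes that fell and in 10 of 16 of the other tested genes. The stretches below are the 250 bases before the RefSeq start of the 4 genes with the largest called falls that hold the core. These genes were picked for both traits, so they do not link the core to the fall. The core or its reverse complement is in capitals.
OAS3, chr12:112938224-112938473, plus strand: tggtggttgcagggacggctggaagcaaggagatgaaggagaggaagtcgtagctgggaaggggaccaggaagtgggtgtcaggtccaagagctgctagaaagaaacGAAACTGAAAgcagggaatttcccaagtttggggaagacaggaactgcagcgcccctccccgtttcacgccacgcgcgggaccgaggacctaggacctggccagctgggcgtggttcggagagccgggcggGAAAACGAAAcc
IFIT1, chr10:89392373-89392622, plus strand: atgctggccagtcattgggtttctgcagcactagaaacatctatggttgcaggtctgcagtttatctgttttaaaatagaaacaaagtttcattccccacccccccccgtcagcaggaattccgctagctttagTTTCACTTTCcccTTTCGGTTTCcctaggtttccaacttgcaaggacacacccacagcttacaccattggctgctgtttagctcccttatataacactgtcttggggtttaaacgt
GBP1, chr1:89065209-89065458, minus strand: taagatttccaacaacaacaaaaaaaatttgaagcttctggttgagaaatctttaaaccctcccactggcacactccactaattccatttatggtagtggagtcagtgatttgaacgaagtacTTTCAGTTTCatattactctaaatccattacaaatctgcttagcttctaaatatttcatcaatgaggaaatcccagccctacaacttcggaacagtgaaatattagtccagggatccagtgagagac
IFI44, chr1:78649539-78649788, plus strand: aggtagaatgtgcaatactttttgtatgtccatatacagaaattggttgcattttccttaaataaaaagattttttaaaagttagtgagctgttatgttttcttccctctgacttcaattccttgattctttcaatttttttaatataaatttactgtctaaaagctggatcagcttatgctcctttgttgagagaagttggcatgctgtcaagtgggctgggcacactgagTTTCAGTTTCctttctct
The cores began 143 and 12 bases before the start in OAS3, 116 and 103 in IFIT1, 127 in GBP1 and 18 in IFI44. The promoter of DTX3L, a gene that shares a promoter region with PARP9, holds a core that begins 6 bases before the DTX3L start. PARP9 and DDX58 also fell, and their own windows, shown as well, hold no match to the core on either strand.
PARP9, chr3:122564785-122565034, minus strand: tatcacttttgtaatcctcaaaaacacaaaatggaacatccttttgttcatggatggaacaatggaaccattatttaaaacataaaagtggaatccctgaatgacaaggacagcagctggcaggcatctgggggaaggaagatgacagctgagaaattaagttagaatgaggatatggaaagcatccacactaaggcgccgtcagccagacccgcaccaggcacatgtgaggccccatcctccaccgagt
DDX58, chr9:32526197-32526446, minus strand: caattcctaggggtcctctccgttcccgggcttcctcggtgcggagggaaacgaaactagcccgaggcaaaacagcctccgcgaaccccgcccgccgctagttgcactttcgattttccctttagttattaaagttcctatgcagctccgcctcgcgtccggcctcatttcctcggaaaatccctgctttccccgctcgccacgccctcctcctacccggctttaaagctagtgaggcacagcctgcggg

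In replicates 3 and 4, 20 of 37 tested interferon-stimulated genes were called lower with the chloroform fraction than in control, beside 11.6% of all genes. MX1, among the 20, reached 1 FPKM there only in its control libraries. The main fits called none of the set in replicates 1 and 2 or over all 4 replicates together. The 20 included the RNA-sensing OAS enzymes, 3 of the 4 IFIT proteins, the antiviral effector BST2, the guanylate-binding GTPase GBP1 and PARP9. OAS3 fell to 32.4% of control, IFIT1 to 32.5% and GBP1 to 35.4%. Only LGALS3BP, a secreted glycoprotein that binds galectins, and DDX60L, a relative of the helicase DDX60, were called higher, at 143% and 146% of control. In such bulk samples, fewer cells of a kind and less RNA per cell cannot be told apart. ISG15, the ubiquitin-like product often used as a marker of this programme, was not called.

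The test was limma on log2(FPKM + 1) with Benjamini-Hochberg adjustment over all 14673 genes tested and a threshold of 0.05. Of the 44 genes, 37 passed the filter on low values in that table and 22 were called, beside 2918 genes called in all (19.9%). MX1, 1 of the 20 lower genes, and IFI44L, not called, passed that filter only through their 2 control libraries, so the direction of MX1 is tied to the filter and supports nothing. The 20 lower ones stand beside a background of 11.6% of genes called lower, and the 2 higher ones beside 8.33% called higher. With the replicate block 18 were called, 16 lower and 2 higher, beside 14.7% of all genes (8.68% lower, 6.02% higher), and voom on rebuilt reads called 26, 23 lower and 3 higher, beside 28.0% (15.5% lower, 12.5% higher). The count was 8 (all lower) when control replicate 3 was left out, beside 3.93% of all genes lower, and 8 (all lower) when control replicate 4 was left out, beside 2.95%. It was 11 (all lower) with no filter on low values, beside 2.86%. Over all 44 listed genes, measured or not, the median difference between fraction and control of the same number was -0.47 on the log2(FPKM + 1) scale in replicate 3 and -0.43 in replicate 4, where all genes tested had medians of -0.008. In replicates 1 and 2 the same medians were -0.12 and -0.04.

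**Figure D1:**
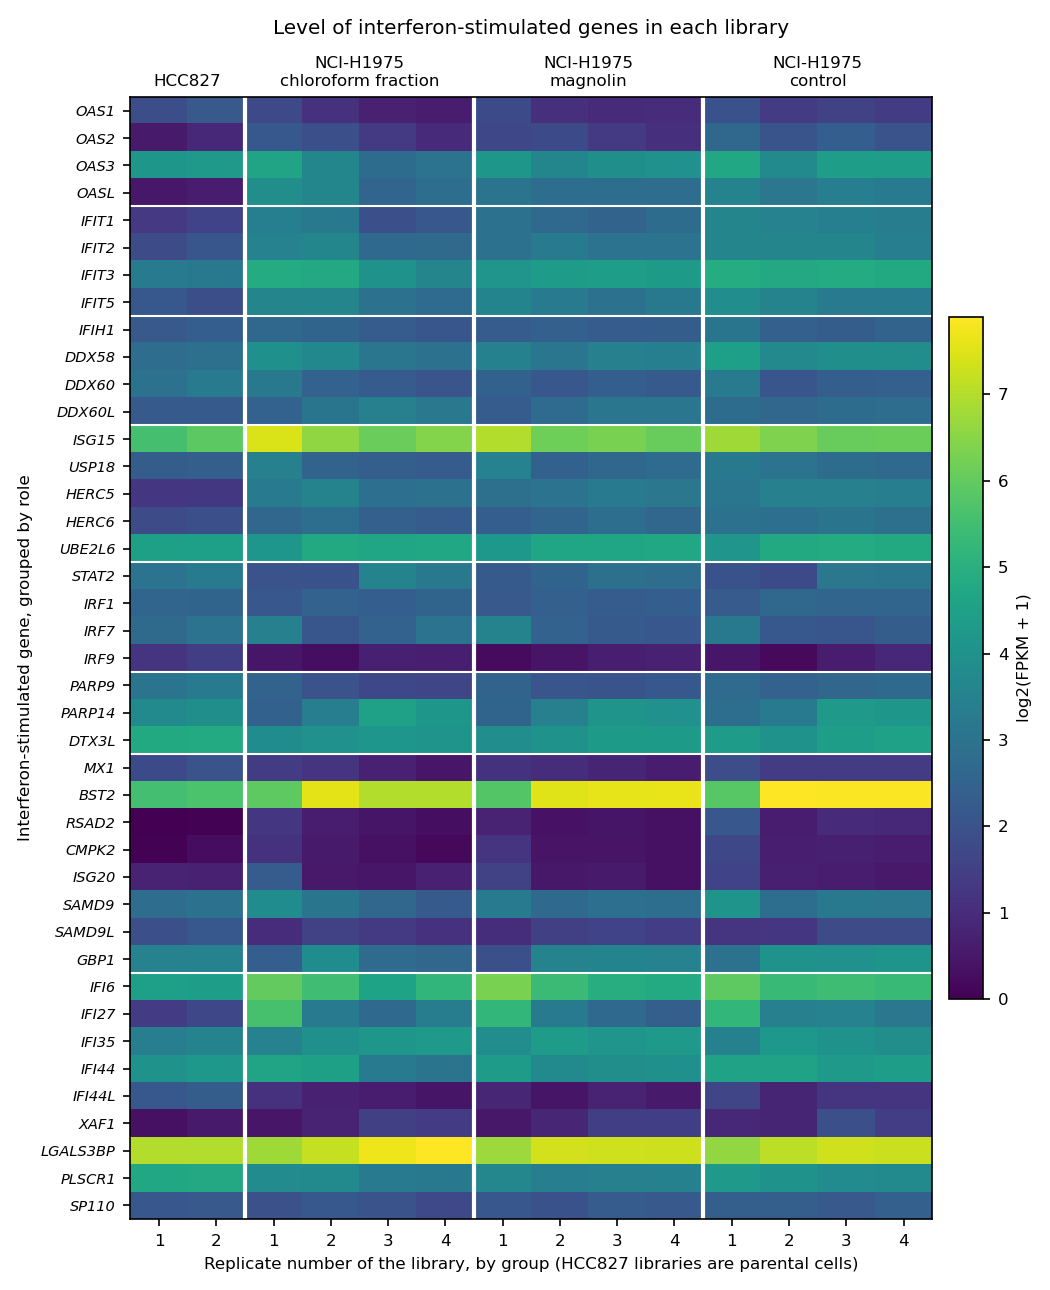
Level of each of the 41 genes, as log2(FPKM + 1) by colour, in every library; rows are genes grouped by role and columns are libraries grouped by cell line and treatment. BST2, LGALS3BP and ISG15 are the brightest rows, and BST2, IFI27 and ISG20 differ between replicate 1 and the other NCI-H1975 libraries in all 3 groups.

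The OAS enzymes make short oligoadenylate chains when they meet double-stranded RNA, and these activate RNase L; OASL lacks that activity and assists the RNA sensor RIG-I instead. All 4 fell with the fraction in replicates 3 and 4. OAS3 had 23.3, 11.4, 5.96 and 7.09 FPKM in fraction libraries, 17.02, 11.2, 14.4 and 15.1 FPKM in magnolin libraries and 25.6, 12.7, 19.99 and 20.3 FPKM in control libraries, each time for replicates 1 to 4. Both fraction libraries of replicates 3 and 4 lay far below the controls and magnolin in between, while in replicates 1 and 2 the 3 groups overlapped. In replicates 3 and 4 OAS3 averaged 6.53 ± 0.802 FPKM in fraction libraries and 20.2 ± 0.238 FPKM in control libraries (SD, n = 2 each), a log2 change of -1.49 (SE 0.095) with a limma adjusted p of 0.000736. In replicates 1 and 2 the log2 change was -0.13 (SE 0.48), not called. OASL had 14.004, 11.4, 5.03 and 6.196 FPKM in fraction libraries, 7.24, 6.28, 6.18 and 6.03 FPKM in magnolin libraries and 10.5, 7.83, 9.36 and 8.65 FPKM in control libraries. In replicates 3 and 4 it fell with the fraction, by a log2 change of -0.60 (SE 0.11, limma adjusted p = 0.0148), whereas in replicates 1 and 2 both fraction libraries were above both controls. In replicates 3 and 4 OAS1 averaged 0.598 ± 0.084 FPKM in fraction libraries and 1.79 ± 0.167 FPKM in control libraries (SD, n = 2 each). Its fraction libraries lay below the 1 FPKM of the filter and its controls above it, so its direction is partly tied to the filter. OAS1 (change -0.80, adjusted p = 0.0263, a call lost in 6 of 12 other settings) and OAS2 (change -1.02, adjusted p = 0.0191) are low genes: OAS2 had 1.56 and 0.976 FPKM in fraction replicates 3 and 4, 1.55 and 1.13 FPKM in magnolin and 4.08 and 3.08 FPKM in control. Fraction and magnolin overlapped, and both lay below control.

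The IFIT proteins bind viral RNA and block its translation. IFIT1 had 9.59, 8.08, 2.78 and 3.39 FPKM in fraction libraries, 6.78, 5.54, 4.71 and 5.98 FPKM in magnolin libraries and 11.03, 10.4, 9.72 and 9.22 FPKM in control libraries. In replicates 3 and 4 the fraction libraries were lowest, magnolin next and control highest with no overlap, and the fraction change was -1.36 (SE 0.13) with a limma adjusted p of 0.00228. IFIT2 had 10.3, 11.2, 5.55 and 5.58 FPKM in fraction libraries, 6.89, 8.34, 6.98 and 7.13 FPKM in magnolin libraries and 11.1, 11.2, 11.1 and 9.49 FPKM in control libraries. The 2 fraction libraries of replicates 3 and 4 lay below all others, a log2 change of -0.78 (adjusted p = 0.00431), while fraction replicates 1 and 2 overlapped the controls. IFIT3 had 28.2, 26.1, 15.3 and 11.1 FPKM in fraction libraries, 16.2, 19.2, 20.1 and 18.9 FPKM in magnolin libraries and 28.6, 26.003, 28.1 and 26.7 FPKM in control libraries. It fell in replicates 3 and 4 by a log2 change of -1.01 (SE 0.14, adjusted p = 0.00708), and its replicate 1 and 2 fraction libraries overlapped the controls. IFIT5, with 5.80 to 13.7 FPKM over the 12 NCI-H1975 libraries, had a log2 difference of -0.39 in replicates 3 and 4 and was not called (adjusted p = 0.0601).

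**Figure D2:**
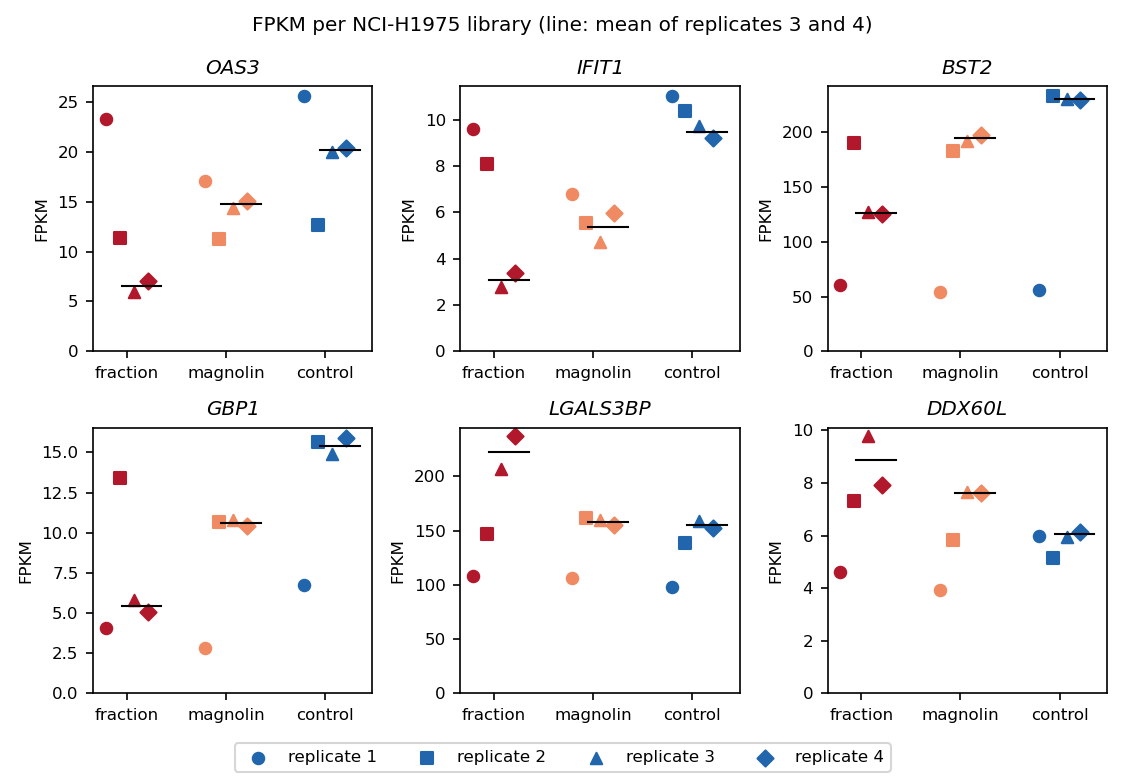
FPKM per NCI-H1975 library of 6 genes called in the comparison of fraction with control in replicates 3 and 4; symbols mark the replicate number and lines the mean of replicates 3 and 4. Fraction replicates 3 and 4 lie below magnolin and control for OAS3, IFIT1, BST2 and GBP1 and above them for LGALS3BP and DDX60L, and replicate 1 of BST2 and GBP1 is low in every group.

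DDX58 encodes RIG-I, which senses viral RNA ends, and IFIH1 encodes MDA5, which senses long double-stranded RNA. DDX58 had 14.6, 11.9, 7.63 and 6.86 FPKM in fraction libraries, 10.2, 7.52, 9.76 and 9.63 FPKM in magnolin libraries and 20.9, 12.2, 14.1 and 13.98 FPKM in control libraries. Every magnolin library lay below every control, and the fraction libraries did so in replicates 3 and 4, where the log2 change was -0.87 (SE 0.08, adjusted p = 0.00205). IFIH1 had 3.93 and 3.28 FPKM in fraction replicates 3 and 4 and 4.05 and 4.78 FPKM in control and was not called (change -0.23, adjusted p = 0.211). The related helicases differed from each other: DDX60L had 4.62, 7.33, 9.79 and 7.92 FPKM in fraction libraries, 3.91, 5.84, 7.65 and 7.61 FPKM in magnolin libraries and 5.97, 5.14, 5.95 and 6.14 FPKM in control libraries. It rose in replicates 3 and 4 by a log2 change of 0.48 (adjusted p = 0.03) with no overlap, whereas DDX60 had a difference of -0.22 and was not called. Both genes lie side by side on chromosome 4 and are related in sequence, and the sources used here do not say how shared reads were counted. The call of DDX60L was lost in 6 of 12 other settings.

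ISG15 is joined to proteins by the conjugating enzyme UBE2L6 and, in human cells, the ligase HERC5, and USP18 takes it off again and also restrains the type I receptor. ISG15 had 172, 95.1, 67.6 and 84.8 FPKM in fraction libraries, 125, 69.7, 78.4 and 65.98 FPKM in magnolin libraries and 108, 81.9, 66.1 and 69.2 FPKM in control libraries. Replicate 1 was highest in each group and the groups overlapped in both tables; the change in replicates 3 and 4 was 0.16 (SE 0.13, adjusted p = 0.437). HERC5 fell with the fraction in replicates 3 and 4, with 6.47 and 6.76 FPKM in fraction libraries and 9.86 and 9.48 FPKM in control libraries, a log2 change of -0.49 (adjusted p = 0.0113). HERC6, a ligase for ISG15 in mice, had 4.31 and 3.91 FPKM in fraction libraries and 7.15 and 6.49 FPKM in control libraries and a change of -0.61 (adjusted p = 0.0155). It was also 1 of 3 genes with every fraction library below every control in all 4 replicates. USP18 fell by a log2 change of -0.39 (adjusted p = 0.0333), with 4.297 and 3.92 FPKM in fraction libraries and 5.87 and 5.51 FPKM in control libraries, a call lost in 9 of 12 other settings. It has a near-identical relative, USP41, so its reads may be shared. UBE2L6 had 24.6 and 24.8 FPKM in fraction libraries and 27.99 and 26.9 FPKM in control libraries and was not called (adjusted p = 0.176).

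None of the tested transcription factors was called between fraction and control. STAT2 had 3.07, 2.97, 10.6 and 8.17 FPKM in fraction libraries, 3.76, 4.798, 6.49 and 6.08 FPKM in magnolin libraries and 2.97, 2.39, 7.78 and 7.51 FPKM in control libraries. Its level was higher in the table of replicates 3 and 4 in every group, though the tables may have been scaled apart, and the fraction change in replicates 3 and 4 was 0.25 (SE 0.12, adjusted p = 0.202). IRF7, which drives interferon genes in infected cells, had a log2 difference of 0.52 (adjusted p = 0.0948) and IRF1 one of -0.12 (adjusted p = 0.431). IRF9 stayed below 1 FPKM in every NCI-H1975 library, at 0.160 to 0.831 FPKM, and was not tested there. Annotated genes on the same strand cover 48.4% of its exon bases, and the sources used here do not say whether such reads were counted.

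PARP9 and the ubiquitin ligase DTX3L form a complex, and their genes share a promoter region on chromosome 3; PARP14 modifies proteins with ADP-ribose. PARP9 had 4.77, 3.097, 2.27 and 2.15 FPKM in fraction libraries, 4.68, 3.29, 3.18 and 3.49 FPKM in magnolin libraries and 5.83, 4.54, 5.03 and 5.55 FPKM in control libraries. The fraction libraries were below the control of the same number in all 4 replicates, and in replicates 3 and 4 the change was -0.97 (SE 0.099, adjusted p = 0.00268). DTX3L had 16.9 and 16.1 FPKM in fraction replicates 3 and 4, 18.8 and 18.6 FPKM in magnolin and 20.2 and 22.1 FPKM in control. It fell with the fraction by a smaller log2 change of -0.34 (adjusted p = 0.0317), a call lost in 8 of 12 other settings. PARP14 had a difference of 0.14 and was not called.

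Of 10 antiviral effectors, BST2, GBP1, SAMD9 and SAMD9L passed the filter in replicates 3 and 4 and were called lower with the fraction, beside 11.6% of all genes lower; MX1 passed it through its control libraries alone. Limma called 0 of 8 tested effectors in replicates 1 and 2 and 0 of 8 in the joint fit. BST2 (tetherin), which holds budding virus at the cell surface, had 60.4, 190.1, 127 and 126 FPKM in fraction libraries, 53.9, 183, 192 and 198 FPKM in magnolin libraries and 56.2, 233, 230.3 and 229.6 FPKM in control libraries. All 3 replicate 1 libraries were low, and among the others the fraction libraries of replicates 3 and 4 lay below magnolin and control. BST2 averaged 126 ± 1.23 FPKM in these fraction libraries and 230.0 ± 0.493 FPKM in control libraries (SD, n = 2 each), a log2 change of -0.86 (SE 0.059, adjusted p = 0.000833). GBP1 had 4.09, 13.4, 5.84 and 5.06 FPKM in fraction libraries, 2.83, 10.7, 10.8 and 10.4 FPKM in magnolin libraries and 6.77, 15.6, 14.9 and 15.9 FPKM in control libraries. Its replicate 1 libraries were again low in every group, and in replicates 3 and 4 the fraction change was -1.35 (SE 0.091, adjusted p = 0.000833). SAMD9, a restriction factor for poxviruses, had 13.5, 7.38, 5.07 and 3.72 FPKM in fraction libraries, 8.39, 5.46, 6.46 and 6.27 FPKM in magnolin libraries and 16.2, 6.21, 8.11 and 7.795 FPKM in control libraries. In replicates 3 and 4 it fell by a log2 change of -0.74 (adjusted p = 0.0135), and its relative SAMD9L by -0.62 (adjusted p = 0.0299), a call lost in 7 of 12 other settings. MX1, a dynamin-like GTPase, had only 0.648 and 0.386 FPKM in fraction replicates 3 and 4, 0.752 and 0.519 FPKM in magnolin and 1.597 and 1.62 FPKM in control. Its change was -0.79 (adjusted p = 0.0481), a call lost in 8 of 10 other settings, and FPKM + 1 understates the change at this level. RSAD2 (viperin), CMPK2 and ISG20 did not pass the filter in that table: RSAD2 had 0.356 and 0.225 FPKM in fraction replicates 3 and 4 and 0.929 and 0.886 FPKM in control, CMPK2 had 0.271 and 0.127 FPKM in fraction and 0.616 and 0.512 FPKM in control, and ISG20 had 0.392 and 0.658 FPKM in fraction and 0.516 and 0.469 FPKM in control.

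Among other induced genes, IFI44 had 23.2, 21.6, 8.796 and 7.22 FPKM in fraction libraries, 19.3, 12.7, 14.05 and 14.5 FPKM in magnolin libraries and 22.4, 22.5, 18.4 and 20.3 FPKM in control libraries. Fraction replicates 3 and 4 were the lowest of the 12 libraries while fraction replicates 1 and 2 overlapped the controls, and the change in replicates 3 and 4 was -1.18 (SE 0.11, adjusted p = 0.00201). PLSCR1, a phospholipid scramblase, had 13.1, 12.4, 8.64 and 8.21 FPKM in fraction libraries, 11.7, 9.51, 9.84 and 9.99 FPKM in magnolin libraries and 18.1, 15.7, 13.1 and 12.8 FPKM in control libraries. It fell with the fraction in replicates 3 and 4 by a log2 change of -0.56 (SE 0.072, adjusted p = 0.00521), and magnolin was below every control in all 4 replicates. LGALS3BP had 108, 147, 207 and 238 FPKM in fraction libraries, 106, 162, 159.9 and 156 FPKM in magnolin libraries and 97.7, 139, 159 and 152 FPKM in control libraries. Fraction replicates 3 and 4 were above all other libraries, a log2 change of 0.51 (SE 0.084, adjusted p = 0.0113). IFI6, a small membrane protein that protects cells from apoptosis, had 63.5, 43.1, 23.1 and 35.4 FPKM in fraction libraries, 78.7, 40.9, 29.4 and 27.5 FPKM in magnolin libraries and 60.2, 39.7, 42.3 and 39.2 FPKM in control libraries. The change with the fraction in replicates 3 and 4 was -0.49 and that of IFI27 -0.31, neither called (adjusted p = 0.12 and 0.389). IFI35, IFI44L, XAF1 and SP110 were not called either; SP110 (20.9%), XAF1 (38.3%) and IRF1 (22.0%) have that share of exon bases under genes on the opposite strand, and the labels leave open whether libraries kept the strand.

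**Figure D3:**
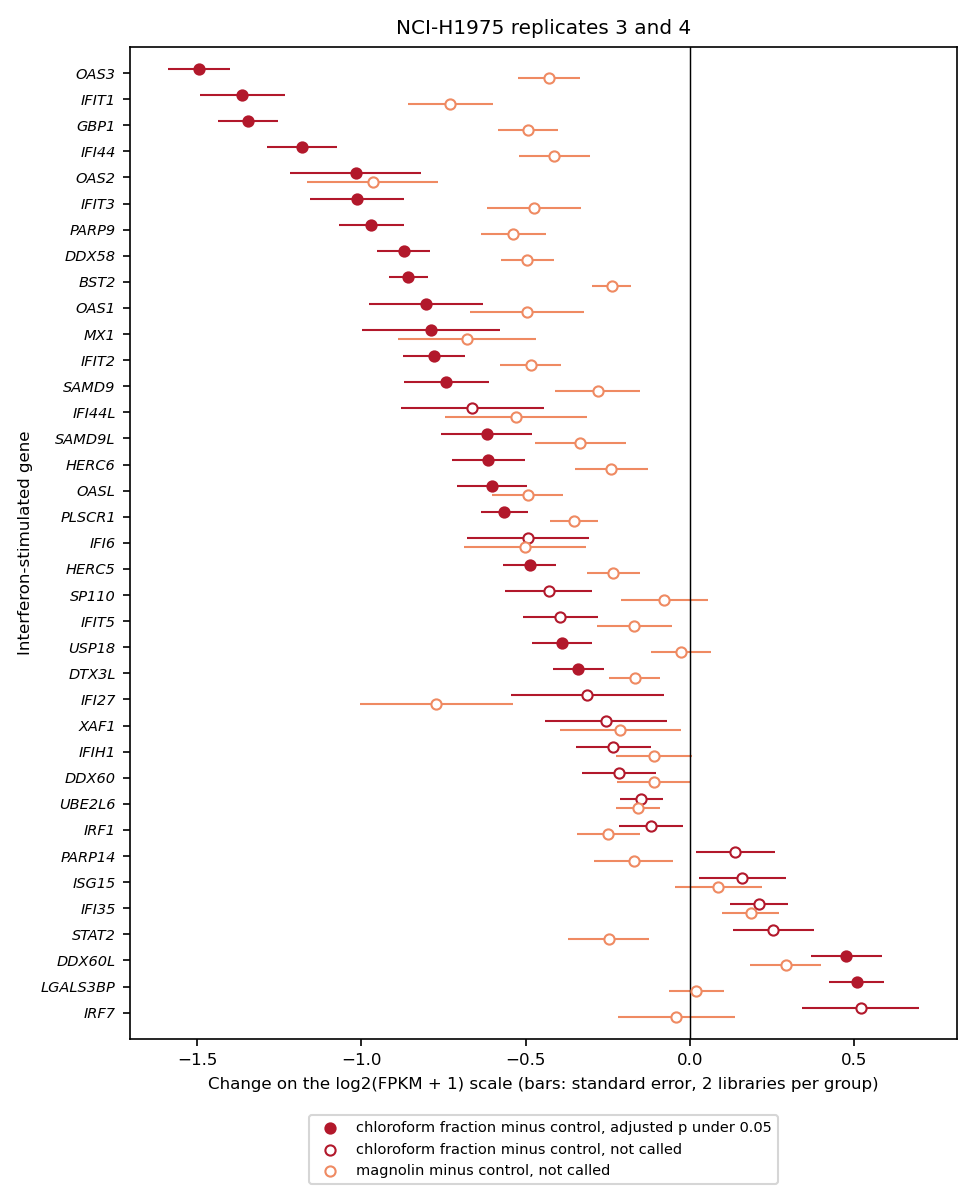
Change of the 37 tested genes in replicates 3 and 4, as fraction minus control (red) and magnolin minus control (orange) on the log2(FPKM + 1) scale, with standard errors from limma; filled points passed an adjusted p of 0.05. The red points run from -1.49 for OAS3 to 0.52 for IRF7, and no magnolin change was called.

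With magnolin, no interferon-stimulated gene passed the test in replicates 3 and 4, where 92 of 14673 genes were called (0.627%); with the replicate block it was again none, beside 0.293%. Before adjustment limma gave 19 of the 37 tested genes a p under 0.05, 18 lower and 1 higher, beside 2083 of all genes, and limma voom on the rebuilt reads called 15, all lower, beside 575 genes called in all (3.92%; 2.81% lower). The 37 again include MX1 and IFI44L, which passed the filter only through their 2 control libraries, so their direction supports nothing here either. The largest magnolin changes by limma were -0.97 (SE 0.20) for OAS2 (adjusted p = 0.11), -0.77 (SE 0.23) for IFI27 (0.232) and -0.73 (SE 0.13) for IFIT1 (0.0877). Fits of the 2 groups alone called 2 genes, both lower, beside 0.731% of all genes lower. Leaving out fraction replicate 3 gave 1 lower gene, beside 0.634%, and leaving out fraction replicate 4 gave 1, beside 0.557%. Both treatments were compared with the same control libraries.

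The direction of the magnolin differences recurred over the replicate numbers. Magnolin was below the control of the same number in all 4 replicates for 24 of the 40 genes tested in the joint table, beside 8.72% of all genes tested. IFI35 and LGALS3BP were above it in all 4 (10.8% of all genes). The median difference over all 44 listed genes was -0.28, -0.22, -0.26 and -0.25 in replicates 1 to 4. Every magnolin library was below every control library for 9 genes (0.966% of all genes): OAS2, OASL, IFIT1, IFIT2, IFIT3, DDX58, HERC6, MX1 and PLSCR1; none had every magnolin library above (1.41%). For IFIT3 the magnolin libraries ranged from 16.2 to 20.1 FPKM and the control libraries from 26.0 to 28.6 FPKM, and for IFIT2 from 6.89 to 8.34 FPKM and from 9.49 to 11.2 FPKM. In a limma fit of all 12 libraries with the replicate number as a block, 15 genes had an unadjusted p under 0.05, all lower, beside 1419 of all genes, but none of the 15428 genes was called after adjustment. For IFIT1 that fit gave -0.72 (SE 0.22, adjusted p = 0.405), for OAS2 -0.79 (SE 0.16, 0.255) and for PLSCR1 -0.49 (SE 0.11, 0.255). Voom called 2 of the genes in the joint fit, both lower, beside 30 in all (0.194%; 0.136% lower).

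With the fraction, 17 of the 40 genes were below the control of the same number in all 4 replicates and 3 above it (ISG15, STAT2 and LGALS3BP), beside 13.2% of all genes in each direction. HERC6, MX1 and SP110 had every fraction library below every control (1.0% of all genes), and no gene of the set had every one above (0.804%). The joint fit called none of the 40 after adjustment, beside 24 of 15428 genes (0.156%); 21 had an unadjusted p under 0.05, 19 of them lower, beside 2737 of all genes, and voom called 4, all lower, beside 233 in all (1.51%; 0.499% lower). Joint changes were -0.81 (SE 0.26) for OAS3 (adjusted p = 0.192), -0.88 (SE 0.22) for GBP1 (0.136) and -0.65 (SE 0.13) for PARP9 (0.076). Without replicate 1 of every group, an alternative chosen after the data were seen, the joint fit still called none of the set, beside 103 genes in all (0.69%). With a term for the table in place of the block it called none of the set and 1 gene in all (0.00648%). Leaving out fraction replicate 2 gave 4 called genes of the set, all lower, beside 338 of 15380 genes called and 0.943% lower. Leaving out fraction replicate 1 gave 1, beside 0.222% lower, and leaving out control replicate 1 gave 1, beside 0.379% lower.

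In replicates 1 and 2 alone, no gene of the set was called in any of the 3 comparisons, by limma, with the replicate block or by voom. In the fit without a block no gene at all was called (0.0%), and 39 genes of the set were tested. That fit leaves the gap between replicates 1 and 2 in the error, though deviations of same-numbered libraries correlated at 0.704 to 0.743 there. The lack of calls thus does not show a lack of response. Before adjustment, p was under 0.05 for 0 genes of the set with fraction against control, 3 with magnolin against control and 2 with fraction against magnolin, beside 107, 255 and 93 of 13103 genes. With the replicate number as a block these became 2, 14 (13 lower) and 9 (all higher) genes of the set, beside 801, 1946 and 852 of 13103 genes. After adjustment that fit called 24 (0.183%), 130 (0.992%) and 24 (0.183%) genes in all, none of them in the set. The changes of the fraction in that table were -0.13 for OAS3, -0.25 for IFIT1, -0.09 for BST2 and -0.01 for IFI44.

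The difference between tables was tested in a limma fit over all 12 libraries with the replicate block, added after the data were seen. For fraction against control, 17 of 40 genes had an unadjusted p under 0.05, beside 1806 of 15428 in all, and OAS3 alone was called, where the log2 change in replicates 3 and 4 minus that in replicates 1 and 2 was -1.36 (SE 0.19, adjusted p = 0.046), beside 35 of 15428 genes (0.227%). For magnolin against control, 2 of the genes had an unadjusted p under 0.05 and none of the 15428 genes was called, with 1828 at an unadjusted p under 0.05. That a difference was not called does not show that the tables gave the same change.

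Fraction and magnolin were compared directly as well; their doses are not given, so unequal doses cannot be told apart from unequal action. In replicates 3 and 4, 10 of 37 genes were called, beside 14.9% of all genes: 8 lower with the fraction (9.36% lower in all) and 2 higher (5.55%). The lower ones were OAS3 at -1.07 (adjusted p = 0.00364), GBP1 at -0.85 (0.00574), IFI44 at -0.77 (0.0117), IFIT1 at -0.63 (0.0297), BST2 at -0.62 (0.00418), PARP9 at -0.43 (0.0389), DDX58 at -0.38 (0.0324) and USP18 at -0.36 (0.0492). The higher ones were STAT2 at 0.50 (0.0464) and LGALS3BP at 0.49 (0.0188). Of 12 other settings, the call was lost in 11 for USP18, in 8 each for PARP9, DDX58 and STAT2, in 7 for IFIT1 and in 6 for LGALS3BP; OAS3 kept it in all, BST2 lost it in 1 and GBP1 and IFI44 in 2 each. By voom 14 were called, 10 lower and 4 higher, beside 22.7% of all genes (11.6% lower, 11.1% higher). The count was 6 with the replicate block (5 lower, 1 higher; 8.93% of all genes, 5.72% lower and 3.21% higher), 4 with no filter (1.45% of all genes lower), 4 in the fit of the 2 groups alone (4.42%), 2 without magnolin replicate 3 (1.32%) and 1 without magnolin replicate 4 (0.984%). It was 4 without control replicate 3 (4.12%) and 4 without control replicate 4 (4.06%); all of these were lower, as are the shares. In replicates 1 and 2, where none was called, 23 of 39 genes were higher with the fraction in both pairs of libraries (25.7% of all genes) and 14 had both fraction libraries above both magnolin libraries (7.56%). The test of the difference between tables called 4 genes, beside 1.17% of all genes: OAS3, GBP1, IFIT3 and IFIT1, with differences of -1.29 (SE 0.19), -1.21 (SE 0.21), -1.13 (SE 0.20) and -1.09 (SE 0.17). The joint fit of fraction against magnolin called none of 15428 genes; before adjustment 1135 had p under 0.05, none of these in the set, and voom called 23 (0.149%), none in the set. Over all 4 replicates, DTX3L was lower than with magnolin in every pair and DDX60L higher in every pair, beside 6.79% and 6.09% of all genes, and no gene of the set was separated in all libraries (0.707% lower and 0.363% higher).

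The replicate 1 and replicate 2 libraries differed in single genes of the set. In all 3 groups replicate 1 was above replicate 2 for 20 of 39 genes and below it for 10, beside 31.6% and 32.0% of all genes. IFI27 had 47.7, 8.58, 5.52 and 8.92 FPKM in fraction libraries, 36.3, 8.72, 5.48 and 4.28 FPKM in magnolin libraries and 36.5, 9.84, 10.4 and 7.78 FPKM in control libraries. Replicate 1 was the highest library in each group, and IFI27 and IRF7 were the 2 genes more than 2-fold higher in replicate 1 in all 3 groups on the log2(FPKM + 1) scale. BST2 and GBP1 were the 2 more than 2-fold lower, beside 5.27% of all genes in either direction. No gene of the set differed by over 2-fold between replicates 3 and 4 in all groups. The summed level of the epithelial markers was also higher in replicate 1, as given above; its part in these differences was not tested.

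**Figure D4:**
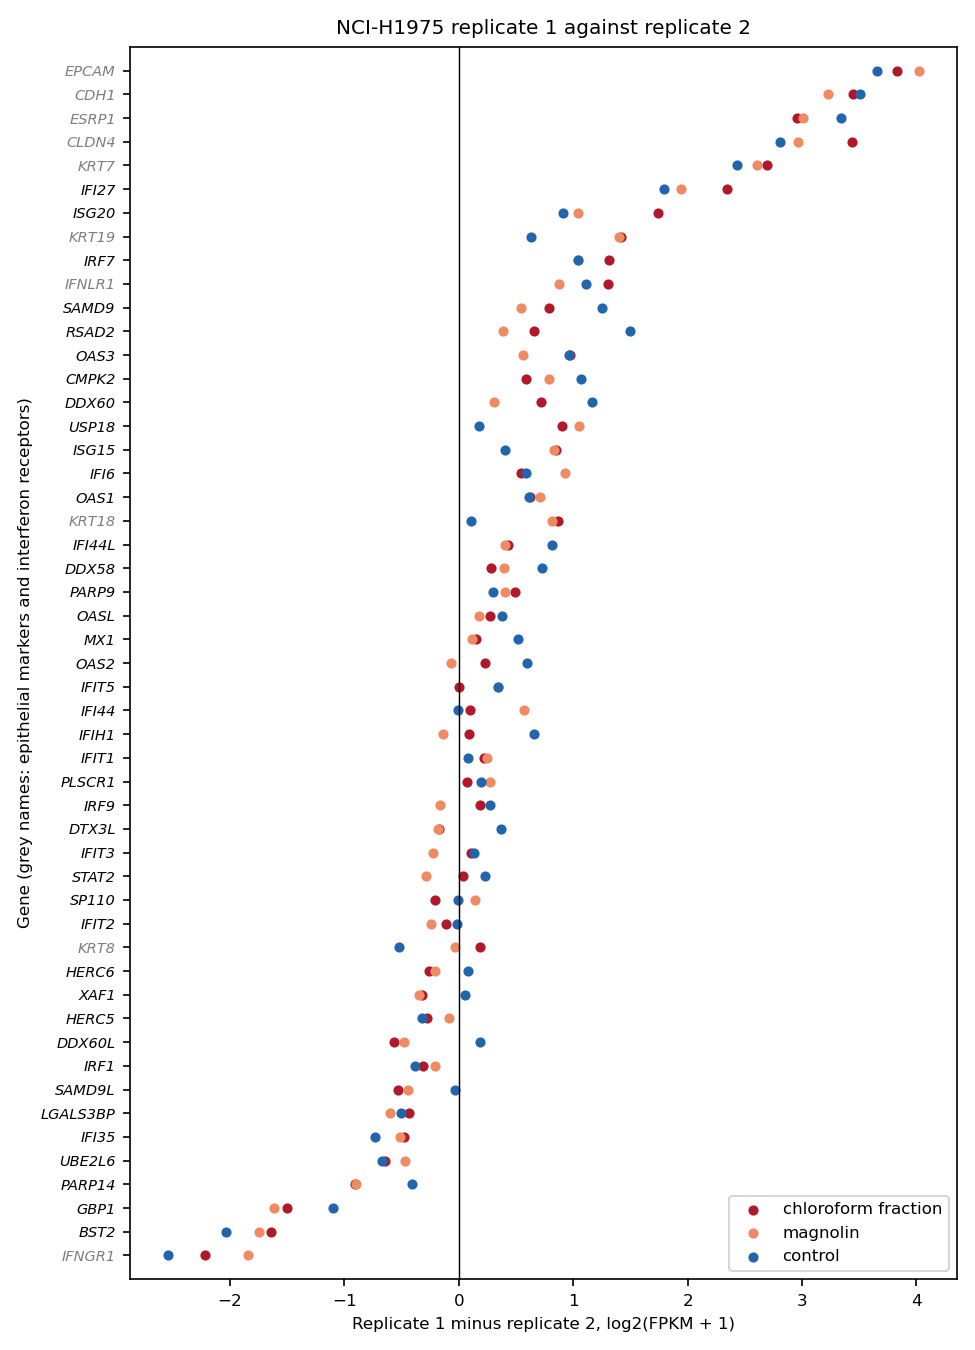
Difference between replicate 1 and replicate 2 in log2(FPKM + 1) for genes of the set (black names) and for epithelial markers and 2 interferon receptors (grey names), one point per NCI-H1975 group. EPCAM and CDH1 lie beyond 3 on the right, IFI27 between 1.79 and 2.35, and BST2, GBP1 and IFNGR1 below -1 in all groups. The epithelial marker KRT8 runs from -0.52 to 0.19.

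The rest of the pathway was followed through 72 further genes, of which 53 were tested in replicates 3 and 4. Interferon genes themselves were near 0: IFNA2, IFNK, IFNL3 and IFNG are listed at 0 in every library, IFNB1 did not pass 0.071 FPKM, IFNA1 0.356, IFNL1 0.357 and IFNL2 0.081. IFNE, an epithelial type I interferon, had 1.998 and 1.56 FPKM in fraction replicates 3 and 4, 1.08 and 0.737 FPKM in magnolin and 1.09 and 1.13 FPKM in control and was not called. Of the receptors, IFNAR1 had 11.4 and 10.5 FPKM in fraction replicates 3 and 4, 12.8 and 13.7 FPKM in magnolin and 11.9 and 11.03 FPKM in control, and was not called. IFNGR2, with 18.4 and 15.2 FPKM in fraction, 16.98 and 19.7 FPKM in magnolin and 17.7 and 15.98 FPKM in control, was not called either. IFNGR1 fell with the fraction in replicates 3 and 4, with 24.5 and 20.7 FPKM in fraction libraries, 46.2 and 44.3 FPKM in magnolin and 64.5 and 66.8 FPKM in control, a log2 change of -1.50 (SE 0.094, adjusted p = 0.00071). IFNAR2 (0.210 to 0.420 FPKM in NCI-H1975) and IL10RB (at most 0.164 FPKM) are listed very low, with 44.2% and 38.1% of their exon bases under genes on the same strand, and the treatment of such reads is not stated. IFNLR1 was above 1 FPKM only in the replicate 1 libraries of NCI-H1975, at 2.32, 1.27 and 1.62 FPKM in fraction, magnolin and control.

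With the fraction in replicates 3 and 4, 17 of these 53 genes were called lower and 2 higher, beside 11.6% and 8.33% of all genes. With magnolin 4 were called, all lower, beside 55 of 14673 genes called lower and 0.627% called in either direction. In replicates 1 and 2 limma called 0 of 52 of them and in the joint fit 0 of 54, in each comparison. JAK1, JAK2, TYK2 and STAT3 were not called. TMEM173 encodes STING, the adaptor for DNA sensing, and had 4.56 and 4.32 FPKM in fraction libraries, 7.48 and 6.89 FPKM in magnolin libraries and 14.5 and 13.8 FPKM in control libraries. It fell with both treatments, with a log2 change of -1.48 for the fraction (adjusted p = 0.00051) and -0.89 for magnolin (adjusted p = 0.0195). IKBKE, a kinase that activates IRF3, fell with the fraction (-1.49, adjusted p = 0.00282), and MAVS, the adaptor of RIG-I and MDA5, rose (0.37, adjusted p = 0.0144). Of the brakes on signalling, SOCS3 (-0.997), PTPN1 and IRF2 fell with the fraction, and SOCS3 also with magnolin (-0.89, adjusted p = 0.046), a call lost with the replicate block. Of the interferon gamma targets that passed the filter, GBP2 (-1.82) and GBP3 fell with the fraction and WARS, a tRNA synthetase, rose (0.66, adjusted p = 0.00338). Of 20 further induced genes, 8 fell with the fraction and none rose, beside 11.6% and 8.33% of all genes; 0 of the 20 were called in replicates 1 and 2 and in the joint fit. They included the membrane proteins IFITM1 (-1.29) and IFITM3, which restrict viral entry, and TNFSF10 (TRAIL), which had 0.530 and 0.505 FPKM in fraction libraries, 1.27 and 0.835 FPKM in magnolin libraries and 8.19 and 7.26 FPKM in control libraries. IFITM1 (-1.24) and TNFSF10 (-2.09) were the further magnolin calls; IFITM1 shares 32.5% of its exon bases with IFITM2 on the same strand. The fraction minus control differences in replicates 1 and 2 were -0.17 for TMEM173, 0.02 for SOCS3, -0.17 for IFITM1 and -0.76 for TNFSF10 on the log2 scale. Those for magnolin minus control were -0.08 for TMEM173, 0.47 for SOCS3, -0.24 for IFITM1 and -0.76 for TNFSF10. The change in replicates 3 and 4 minus that in replicates 1 and 2 was -1.31 (SE 0.19) for TMEM173 with the fraction (adjusted p = 0.0514), -1.28 (SE 0.17) for GBP2 with the fraction (adjusted p = 0.0456) and -1.36 (SE 0.21) for SOCS3 with magnolin (adjusted p = 0.27).

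The summed levels of some marker lists moved with the groups in replicates 3 and 4. The 8 epithelial markers summed to 427 and 469 FPKM in fraction libraries, 459 and 452 FPKM in magnolin libraries and 637 and 630 FPKM in control libraries. The 7 fibroblast markers summed to 9.85 to 10.5 FPKM in fraction libraries, 15.1 to 15.5 FPKM in magnolin and 19.7 to 25.2 FPKM in control, mostly from COL1A2, while COL3A1, DCN and PDGFRA did not pass 0.032 FPKM. The 4 endothelial markers summed to 1.03 to 1.11 FPKM in fraction libraries, 1.54 to 1.80 FPKM in magnolin and 4.35 to 6.34 FPKM in control, and of these CDH5 had 0.172 and 0.0498 FPKM in fraction, 0.775 and 0.616 FPKM in magnolin and 4.39 and 3.07 FPKM in control. Mitochondrial transcripts took 7.04% to 8.17% of reads in fraction libraries, 6.38% to 6.40% in magnolin and 5.83% to 5.84% in control. Their part in the results on interferon-stimulated genes was not tested.

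Parental HCC827 was set beside the 4 control NCI-H1975 libraries without a test, since the tables were treated as scaled apart from each other. Of the 41 genes, 20 were below all 4 controls, 6 above all 4 and 15 overlapped, beside 29.4% of genes below and 22.9% above. OAS2, OASL, RSAD2, CMPK2 and XAF1, among those below, stayed under 1 FPKM in HCC827. They passed the filter through NCI-H1975 libraries alone, so their direction is tied to the filter and supports nothing. OASL had 0.431 and 0.509 FPKM in HCC827 and 10.5, 7.83, 9.36 and 8.65 FPKM in control NCI-H1975. BST2 had 45.3 and 50.2 FPKM in HCC827 and 56.2, 233, 230.3 and 229.6 FPKM in control NCI-H1975, where only replicate 1 came near the HCC827 level. HERC5 had 1.40 and 1.43 FPKM in HCC827 and 7.61, 9.78, 9.86 and 9.48 FPKM in control NCI-H1975, and IFI27 had 1.58 and 2.27 FPKM in HCC827 and 36.5, 9.84, 10.4 and 7.78 FPKM in control NCI-H1975. All 4 IFIT genes were below the controls as well, with IFIT3 at 8.78 and 8.204 FPKM in HCC827. The 6 genes above the controls were IRF9, PARP9, DTX3L, SAMD9L, IFI44L and PLSCR1. IRF9 reached 1 FPKM only in the HCC827 libraries, so its direction is tied to the filter and supports nothing. PLSCR1 had 24.9 and 26.4 FPKM in HCC827, and IRF9 had 1.34 and 1.78 FPKM in HCC827 and 0.403, 0.160, 0.516 and 0.831 FPKM in control NCI-H1975. The 3 genes below 1 FPKM everywhere reached at most 0.903 FPKM (MX2, fraction replicate 3), 0.163 FPKM (TRIM22, control replicate 2) and 0.702 FPKM (EPSTI1, HCC827 replicate 1).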

How the data were processed

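RNA of NCI-H1975 and HCC827 cells was sequenced from libraries made with NEB kits, per the labels' protocols, and the genome build was hg38, per the submitters' processing notes. Aligner, counting rule and strand setting were not given in the sources used here. Per gene, the authors deposited FPKM values in separate tables: replicates 1 and 2, replicates 3 and 4, and HCC827. How each was scaled was not given either, and they were treated as scaled apart from each other. A further 2 columns whose names match no sample's labels were not used, so resistant HCC827 cells are not analysed here.

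From the deposited FPKM, log2(FPKM + 1) was tested with limma 3.58.1 in R 4.3.3 (trended empirical Bayes) over all genes with at least 1 FPKM in 2 libraries of the fit, with Benjamini-Hochberg adjustment and a threshold of 0.05. All 3 NCI-H1975 groups of a table entered 1 fit and shared its estimate of the spread. Fraction replicates 3 and 4 differed more from each other than did the same replicates of the other groups. The chi-square of rebuilt reads per gene was 13.1 for fraction, 3.99 for magnolin and 3.92 for control. The shared estimate may thus understate the spread of these fraction libraries. The joint fit of 12 libraries had the replicate number as a block. Standard errors printed with a change are limma's. Read depth was rebuilt from the steps of the FPKM values, and those reads were used for limma voom as an alternative. Scripts were tested on simulated data. Rebuilt depth was 15.9 to 21.3 M reads per library, which bounds the precision of genes near 1 FPKM.

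Over all 4 replicates, deviations of same-numbered libraries from their group means correlated at 0.29 to 0.84 over 12 pairs. Those group means span both tables, so the correlation also takes in the difference between the tables. Within replicates 1 and 2 alone it was 0.704 to 0.743, and within replicates 3 and 4 alone -0.0265 to 0.0239. The numbers, which come from the labels, were used as the block of the joint fit, though replicates 3 and 4 alone show no pairing.

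The result of 1 pathway gene is not reported here. The 44 genes and the other gene lists were chosen with earlier results of these data known. Every listed gene could be named; values per library are given for called genes with a mean of at least 2 FPKM in 1 group (up to 14 per comparison), the 6 highest and those that differed most between replicates 1 and 2. Alternatives were another pseudocount (0.1), no filter, median-ratio rescaling, the replicate block, voom, the 2 groups alone and each library left out.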

Additional observations from a re-analysis of the deposited data

Results flagged for a closer look

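Within groups of 4 fraction, magnolin or control libraries, 1 library lay apart from the other 3 by Dixon's test for 25 of 123 gene and group combinations, in 16 genes; chance gives about 1 in 20. These groups set libraries of both tables side by side, though the tables may have been scaled apart. Of these, 22 were replicate 1 libraries (3 fraction, 8 magnolin, 11 control). Low in replicate 1 were BST2 at 53.9 FPKM in magnolin and 56.2 FPKM in control, and GBP1 at 2.83 FPKM in magnolin and 6.77 FPKM in control. LGALS3BP was low in magnolin at 106 FPKM, HERC5 in control at 7.61 FPKM, and UBE2L6 at 17.5 FPKM in magnolin and 16.5 FPKM in control. High in replicate 1 was IFI27 at 47.7 FPKM in fraction, 36.3 FPKM in magnolin and 36.5 FPKM in control. ISG20 was high at 3.89 FPKM in fraction, 1.96 FPKM in magnolin and 2.02 FPKM in control. CMPK2 was high at 1.33 FPKM in magnolin and 2.31 FPKM in control, USP18 at 9.76 FPKM in fraction and OAS1 at 2.42 FPKM in magnolin. In control replicate 1, IRF7 was high at 8.25 FPKM, MX1 at 2.68 FPKM, RSAD2 at 3.38 FPKM and IFI6 at 60.2 FPKM. The other 3 were IFIT2 at 8.34 FPKM (high) in magnolin replicate 2 and 9.49 FPKM (low) in control replicate 4, and SP110 at 3.65 FPKM (low) in control replicate 3.

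The change between groups differed between the tables of replicates 3 and 4 and of replicates 1 and 2 by the limma test of that difference. For OAS3 the fraction change against control differed by -1.36 (SE 0.19) on the log2(FPKM + 1) scale. Against magnolin the fraction change differed by -1.29 (SE 0.19) for OAS3, -1.21 (SE 0.21) for GBP1, -1.13 (SE 0.20) for IFIT3 and -1.09 (SE 0.17) for IFIT1.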

How the results depend on the processing

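In replicates 3 and 4, the fit with the replicate numbers as pairs (the replicate block) called 18 genes of the set for fraction against control (22 without it) and 6 for fraction against magnolin (10 without it). With no filter on low values the counts were 11 and 4. The 2 groups alone gave 4 called genes for fraction against magnolin and 2 for magnolin against control. By voom, magnolin against control had 15 in replicates 3 and 4 and 2 in the joint fit, and fraction against control had 4 in the joint fit. With each library left out in turn, replicates 3 and 4 gave 8 to 24 called genes for fraction against control, 0 to 1 for magnolin against control and 1 to 11 for fraction against magnolin, and the joint fit gave 0 to 4 for fraction against control; a lone library was assumed to vary like the other groups. Among these fits of replicates 3 and 4, more genes were called in all where more of the set were called, and fewer where fewer were. The upper ends of these ranges thus do not show a gain particular to the set. The cause of the differences between settings was not tested. Called in all 12 alternatives for fraction against control in replicates 3 and 4 were BST2, DDX58, GBP1, IFI44, IFIT1, IFIT2, OAS3 and PARP9, and for fraction against magnolin OAS3; no called gene changed direction. Alternatives planned for resistant HCC827 cells were not run.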
